A study of Mus musculus with 6 samples.

Results

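Expression of 10 genes of the pluripotent epiblast was followed in whole mouse embryos at embryonic day 8.5. The genes were Pou5f1, Nanog, Dnmt3b, Utf1, L1td1, Dppa4, Lin28a, Zfp42, Sall4 and Slc7a3. They were chosen by name from the known pluripotency programme, with earlier results of these arrays known. They make up 10 of the 18193 genes with a value. Each was read from a probe set, the group of array probes for 1 transcript, whose annotation gives exactly 1 gene symbol, and the brightest such probe set stands for the gene. Double knockout embryos carried Fz2-/-; Fz7-/-, and single knockout embryos carried Fz2+/+; Fz7-/-, so every embryo lacked Fz7. Fz2 and Fz7, written Fzd2 and Fzd7 as gene symbols, encode Frizzled receptors for Wnt signals. Each group had 3 single-colour Affymetrix arrays, called replicates 1 to 3, from embryos of a C57BL6/129 mixed background and of mixed gender. Neither the number of embryos in a sample nor the litter is given in the labels, so p-values cover only how these 3 and 3 samples scattered, and part of that scatter may be technical. Wild-type embryos were not analysed here. The study asked how embryos that lack both receptors differ from embryos that lack Fz7 alone.

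The epiblast is the pluripotent tissue that gives rise to all cells of the embryo proper at gastrulation. Its state is held by a network of transcription factors with Oct4 (the product of Pou5f1), Sox2 and Nanog at the centre, which bind each other's genes and their own. These factors are shut down as the body axis forms, so that Oct4 and Nanog become restricted to primordial germ cells, while Sall4, Lin28a and Dnmt3b stay active in many embryonic tissues for longer.

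Fzd2, which separates the genotypes, read 7.30, 7.69 and 7.63 in the double knockout, against 9.86, 9.99 and 10.01 in the single knockout (all values are log2 signals after RMA, robust multi-array average). It fell by 2.42 (SE 0.11, limma adjusted p = 0.00567). That call was lost without double knockout replicate 3, without any 1 of the 3 single knockout arrays and with the mean of its probe sets. Fzd7 averaged 4.89 ± 0.097 in the double knockout and 4.92 ± 0.0065 in the single knockout (SD, n = 3 each), below the array medians, and where its probes lie relative to the deletion is not known here. Markers of day 8.5 tissue were bright in the single knockout, with the embryonic globin gene Hbb-y at 13.07, 13.53 and 12.85 and the heart gene Myl7 at 13.07, 13.21 and 13.10 (both picked after their values were seen). Double knockout replicate 1 stood apart. Its correlations with the other 5 arrays across genes were 0.987 to 0.990, whereas the other 5 correlated at 0.997 to 0.998 with each other. By over 1 log2 unit, 479 genes in it differed from the average of the remaining arrays, against 18 to 37 genes in any other array. Group differences are therefore given with and without that array.

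All 10 pluripotency genes had a higher mean in the double knockout than in the single knockout, but none passed the test over all genes. Log2 differences ran from 0.19 for Lin28a to 2.35 for Pou5f1, with a median of 0.39, against -0.0093 over all genes. With limma and Benjamini-Hochberg adjustment over 18193 genes, the adjusted p was 0.872 for each of the 10 genes. At a threshold of 0.05 the test called 1 gene in all, Fzd2, or 0.0055% of those tested, and 0 genes as higher (0%). At an unadjusted p under 0.05, 1 of the 10 genes, Dppa4, was higher, against 1.96% of all genes. The 3 double knockout arrays lay above all 3 single knockout arrays for 5 of the 10 genes (Pou5f1, Dnmt3b, Dppa4, Lin28a and Slc7a3), against 4.85% of all genes. Differences above 0 were found for 46.2% of all genes. The genes were picked with earlier results of these arrays known, so these counts describe the list and are not a test of it. In whole embryos, more cells that express a gene and more RNA per cell cannot be told apart.

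**Figure D1:**
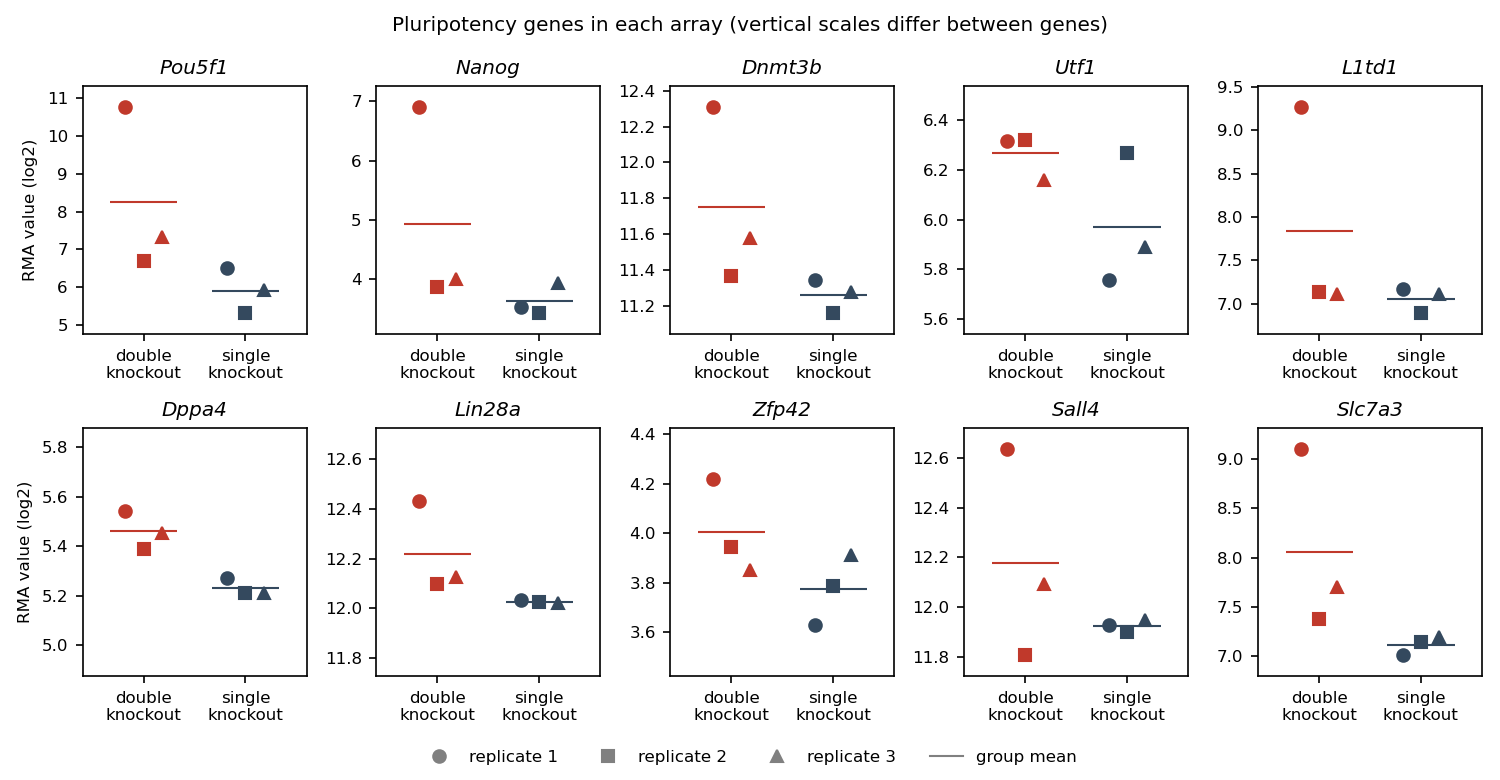
RMA log2 values of the 10 genes in each array, with double knockout arrays in red on the left, single knockout arrays in dark blue on the right, marker shapes for replicate numbers and lines for group means; vertical scales differ between panels. Double knockout replicate 1 is the highest of the 6 arrays for every gene but Utf1, and it lies furthest from the other arrays for Pou5f1, at 10.77.

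Pou5f1 encodes Oct4, the POU-domain factor without which no pluripotent cells form. In double knockout replicates 1 to 3 it read 10.77, 6.69 and 7.32, against 6.51, 5.31 and 5.92 in single knockout replicates 1 to 3. The groups did not overlap, but double knockout replicate 2 lay only 0.18 above single knockout replicate 1. The means were 8.26 ± 2.20 in the double knockout and 5.91 ± 0.60 in the single knockout (SD, n = 3 each). The difference of 2.35 (SE 1.04) corresponds to 5.09-fold. Pou5f1 also had the widest range of the 10 genes within the single knockout, at 1.20 log2 units. Double knockout replicate 1 read 4.42 above the mean of the other 5 arrays, or 21.4-fold, which was rank 1 of 18193 genes for that distance.

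Nanog, a homeodomain factor that stabilises the pluripotent state, followed Pou5f1 in replicate 1 and much less in the other arrays. It read 6.91, 3.88 and 4.01 in the double knockout, against 3.53, 3.43 and 3.94 in the single knockout. Double knockout replicate 2 fell inside the range of the single knockout, so the groups overlapped. The difference was 1.30 (SE 0.79), and replicate 1 was 3.15 above the mean of the other 5 arrays, rank 13 of all genes. Apart from replicate 1, every Nanog value lay below the array medians of 5.79 to 5.82, a range in which RMA compresses differences. Both Pou5f1 and Nanog have processed pseudogenes of nearly the same sequence, and whether their transcripts reach these probe sets was not tested.

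Oct4 and Sox2 are known to bind side by side, to a POU octamer and a SOX motif, in the regulatory DNA of pluripotency genes, Nanog and Pou5f1 themselves among them. The letters TTTGCAT (octamer core) and ACAATG (SOX motif) were looked for on both strands in RefSeq promoters of GRCm38.p6, from 250 bases before to 50 bases after each start. The table holds 9 promoters of 7 of the 10 genes. The stretches with a match are shown: those of Nanog and Zfp42 hold the octamer core, the kind of motif that Oct4 binds, and those of Pou5f1 and Lin28a hold the SOX motif alone. They are written 5′ to 3′ on the strand of the gene, with motif matches in capitals.
Nanog, chr6:122707389-122707452, plus strand: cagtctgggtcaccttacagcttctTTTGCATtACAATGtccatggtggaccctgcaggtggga
Zfp42, chr8:43307163-43307219, minus strand: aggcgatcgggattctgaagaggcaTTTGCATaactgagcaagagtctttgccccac
Pou5f1, chr17:35508624-35508679, plus strand: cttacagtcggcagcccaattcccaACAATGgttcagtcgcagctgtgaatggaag
Lin28a, chr4:134018882-134018937, minus strand: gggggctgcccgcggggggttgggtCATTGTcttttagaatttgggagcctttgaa

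The Nanog stretch held both motifs with 1 base between them. It begins 100 bases before the first listed start of Nanog and 176 bases before the second, so 1 stretch accounts for both Nanog promoters. A pair within 20 bases, with overlapping matches also counted, was present in 0.237% of the 32851 promoters in the table. The octamer core, with or without the SOX motif, was present in 4.63% of them and, among the 10 genes, in the promoters of Nanog and Zfp42. The SOX motif was present in 12.6% of promoters and in those of Nanog, Lin28a (read on the opposite strand, as CATTGT) and the second listed start of Pou5f1, which lies inside the gene. Dnmt3b, L1td1, Utf1 and the first start of Pou5f1 held neither run of letters in this window. A match describes the letters only, and these arrays do not measure binding.

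Among the genes for chromatin and RNA-binding proteins of pluripotent cells, L1td1 had the largest difference with all 6 arrays and the smallest without double knockout replicate 1. L1td1 encodes an RNA-binding protein derived from a LINE-1 transposon. It read 9.27, 7.13 and 7.11 in the double knockout, against 7.17, 6.89 and 7.11 in the single knockout. Replicate 1 alone was high, by 2.19 over the mean of the other 5 arrays, and the remaining double knockout arrays lay within the single knockout range. The difference was 0.78 (SE 0.57).

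Lin28a, which encodes an RNA-binding protein that blocks maturation of let-7 microRNAs, was bright and nearly constant. It read 12.43, 12.10 and 12.13 in the double knockout, against 12.03, 12.03 and 12.02 in the single knockout. The groups did not overlap, with a gap of 0.068 between them, and the difference was 0.19 (SE 0.10), or 1.14-fold. The single knockout arrays differed among themselves by only 0.011.

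Dppa4, a nuclear protein of pluripotent and germ cells, had the smallest unadjusted p of the 10 genes. It read 5.54, 5.39 and 5.45 in the double knockout, against 5.27, 5.21 and 5.21 in the single knockout. All 3 double knockout arrays lay above the single knockout, by at least 0.12, and replicate 1 was only slightly apart from replicates 2 and 3. The difference was 0.23 (SE 0.06), with an unadjusted limma p of 0.00823, rank 117 of all genes. These values are below the array medians.

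Utf1, a chromatin-bound factor of pluripotent cells and a known target of Oct4 with Sox2, was the exception to the pattern of replicate 1. It read 6.32, 6.32 and 6.16 in the double knockout, against 5.75, 6.27 and 5.89 in the single knockout. Replicates 1 and 2 of the double knockout were level, and single knockout replicate 2 lay among the double knockout values, so the groups overlapped. The difference was 0.30 (SE 0.14).

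Sall4 and Zfp42 encode zinc finger proteins. Sall4 binds the Pou5f1 gene in embryonic stem cells and is needed for growth of the epiblast. It read 12.64, 11.81 and 12.09 in the double knockout, against 11.93, 11.90 and 11.95 in the single knockout. Double knockout replicate 2 was the lowest of the 6 arrays and replicate 1 the highest, so the double knockout spanned the single knockout, with a difference of 0.25 (SE 0.20). Zfp42, also called Rex1, marks naive stem cells and extraembryonic ectoderm. It read 4.22, 3.94 and 3.85 in the double knockout, against 3.63, 3.79 and 3.91 in the single knockout. The groups overlapped, the difference was 0.23 (SE 0.12), and all values were far below the array medians.

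Dnmt3b and Slc7a3 are an enzyme and a transporter. Dnmt3b sets new DNA methylation in the epiblast after implantation. It read 12.31, 11.36 and 11.58 in the double knockout, against 11.34, 11.16 and 11.27 in the single knockout. The groups lay apart by only 0.022, between double knockout replicate 2 and single knockout replicate 1, and differed by 0.49 (SE 0.23), or 1.41-fold. Slc7a3 carries arginine and lysine into cells. It read 9.11, 7.38 and 7.71 in the double knockout, against 7.01, 7.15 and 7.20 in the single knockout. Every double knockout array lay above every single knockout array, by at least 0.18, and the difference was 0.94 (SE 0.42), or 1.92-fold.

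For most of the 10 genes replicate 1 gave the larger share of the difference. It was the highest of the 6 arrays for 9 of the 10 genes, against 25.3% of all genes, and lay more than 1 log2 unit above the mean of the other 5 for 4 of them (Pou5f1, Nanog, L1td1 and Slc7a3), against 1.16% of all genes. Relative to the single knockout mean the median of the 10 genes was 0.88 in replicate 1, 0.16 in replicate 2 and 0.21 in replicate 3 of the double knockout. The single knockout mean was exceeded by 9 of the 10 genes in replicate 2, where 43.1% of all genes did so, and by all 10 in replicate 3, where 51.9% did so. Sall4 in replicate 2 was the exception, at -0.12.

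**Figure D2:**
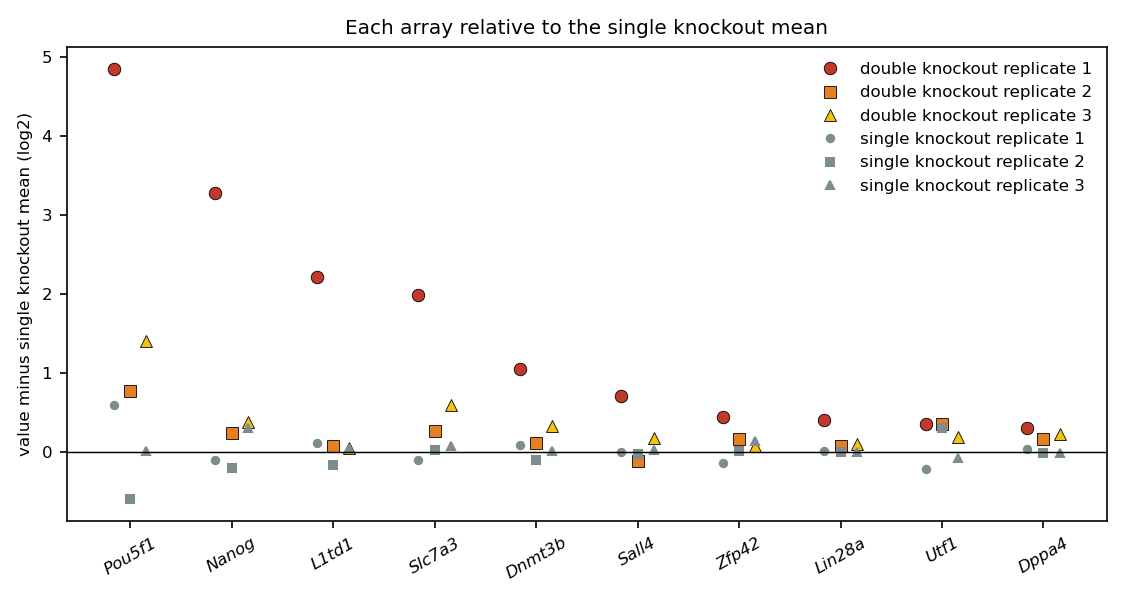
Each array's log2 value minus the mean of the 3 single knockout arrays, for the 10 genes in order of double knockout replicate 1; large coloured markers are double knockout arrays and small grey markers single knockout arrays. Pou5f1 is 4.86, 0.78 and 1.40 above the single knockout mean in double knockout replicates 1 to 3, while Utf1 and Dppa4 are nearly level across the 3.

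Without double knockout replicate 1 the 10 differences stayed above 0, between 0.026 for Sall4 and 1.09 for Pou5f1, with a median of 0.20 against -0.0067 over all genes, and 46.7% of all genes were above 0. None of the 10 passed the test, which again called only Fzd2 (0.0055% of genes), and their adjusted p ran from 0.701 to 0.979. Slc7a3 (0.42, SE 0.11), Pou5f1 (1.09, SE 0.35) and Dppa4 (0.19, SE 0.06) had an unadjusted limma p under 0.05, at 0.00897, 0.0208 and 0.0173, against 2.91% of all genes that were higher at that level. For the remaining genes the difference was 0.31 for Nanog, 0.27 for Utf1, 0.21 for Dnmt3b, 0.12 for Zfp42, 0.086 for Lin28a and 0.064 for L1td1. Double knockout replicates 2 and 3 both lay above the whole single knockout group for the same 5 genes as with all arrays, against 10% of all genes. Leaving out replicate 1 reduced the difference by over 1.5 times for Pou5f1, Nanog, Dnmt3b, L1td1, Lin28a, Zfp42, Sall4 and Slc7a3, and by less for Utf1 and Dppa4.

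**Figure D3:**
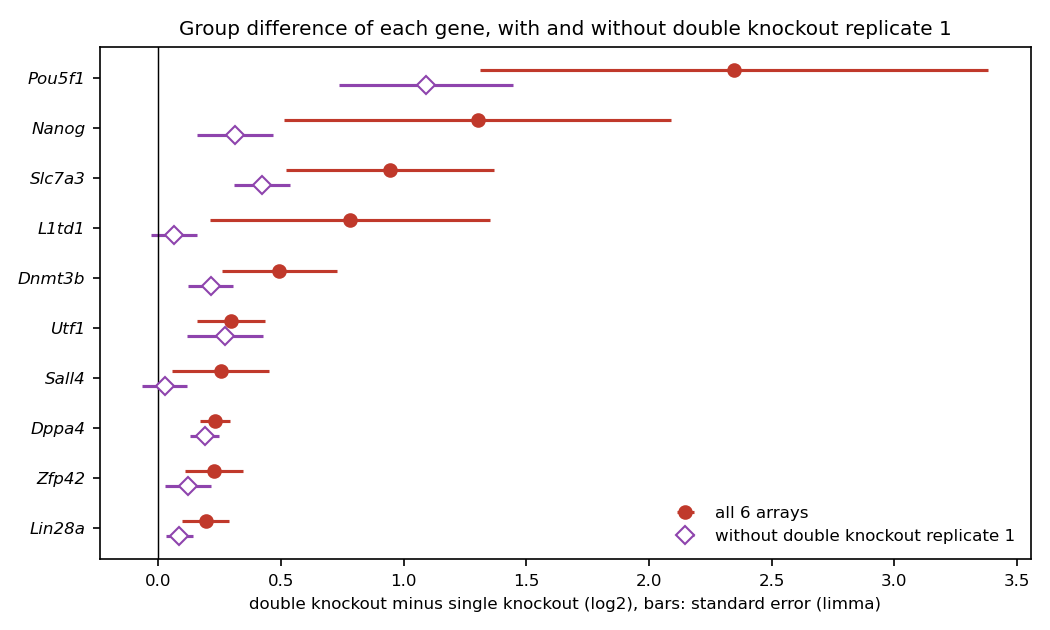
Double knockout minus single knockout on the log2 scale for each gene, with limma standard errors as bars, from all 6 arrays (red circles) and without double knockout replicate 1 (open purple diamonds). The differences are above 0 in both fits; for Nanog the difference is 1.30 with all arrays and 0.31 without replicate 1, and for Dppa4 it is 0.23 and 0.19.

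Of the 10 genes, 4 have more than 1 probe set, and the further probe sets did not all follow the one used. The second set of Dnmt3b read 11.08, 10.11 and 10.35 in the double knockout, against 10.02, 9.84 and 9.98 in the single knockout, and differed by 0.57 (SE 0.24). The second set of Lin28a differed by 0.17 (SE 0.10), close to the 0.19 of the first. The second set of Sall4 read 9.53, 8.44 and 8.63 in the double knockout, against 9.32, 8.69 and 8.63 in the single knockout. Its difference was -0.013 (SE 0.31), and -0.35 without double knockout replicate 1, so the direction for Sall4 depends on the probe set. Of the other 2 sets of Utf1, both dim, one differed by 0.13 (SE 0.06) and one by -0.20 (SE 0.10), so its direction does too.

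The order of the 6 arrays for Pou5f1 was shared by several genes. Likeness was measured as Pearson's r with Pou5f1 over the arrays, among named genes with a range of at least 1 log2 unit, and is given as a description. Over all 6 arrays the most alike were Wnt8a, a Wnt ligand of the primitive streak (r = 0.999), Lrp2, an endocytic receptor (0.998), Igfbpl1 (0.998), Smim22 (0.995) and Fhdc1 (0.992). Replicate 1 dominates that measure, since 171 of 720 such genes had r above 0.9. Over the 5 arrays without it, 4 of 116 genes did. These were Tlcd3b (0.994), Wnt8a (0.991), Cfc1, a co-receptor for Nodal (0.965), and Vgll3 (0.961), and the fifth gene in order was Foxd4 (0.884). Vgll3 did not share the high value of replicate 1, where it read 7.18, against 9.04 and 9.45 in double knockout replicates 2 and 3.

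Wnt8a read 8.47, 5.44 and 5.83 in the double knockout, against 5.11, 4.41 and 4.77 in the single knockout. Like Pou5f1 it was highest in double knockout replicate 1, then 3, then 2, and lowest in single knockout replicate 2, and its difference of 1.82 (SE 0.77; 0.87 without replicate 1) did not pass the test (limma adjusted p = 0.872). Among the 10 genes, r with Pou5f1 over the 5 arrays without replicate 1 was 0.970 for Dnmt3b, 0.911 for Dppa4 and 0.839 for Lin28a. It was 0.729 for L1td1, 0.702 for Slc7a3, 0.648 for Nanog and 0.446 for Sall4. The lowest values were 0.0916 for the dim gene Zfp42 and -0.0086 for Utf1, whose r was only 0.375 with all 6 arrays as well.

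**Figure D4:**
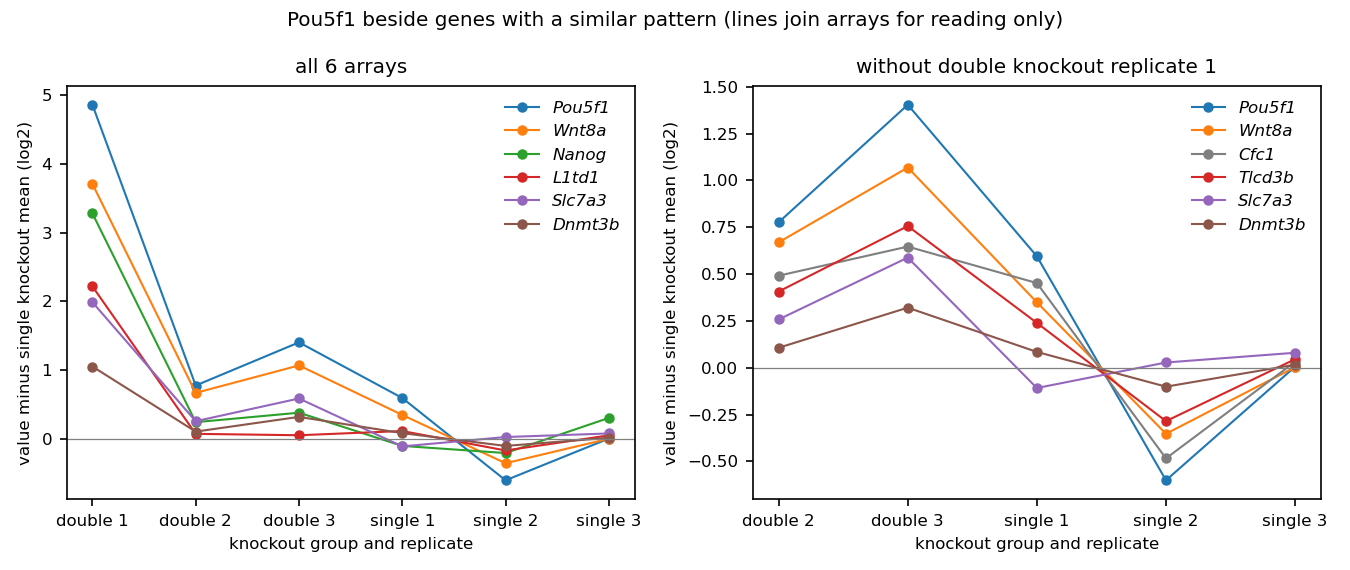
Log2 value minus the single knockout mean in each array (horizontal axis: group and replicate) for Pou5f1 and genes picked by hand for display. All 6 arrays are on the left, and those without double knockout replicate 1 on the right. Lines join arrays for reading only. Not every gene shown is among the most alike, as r for Slc7a3 on the right was 0.702, and Vgll3, with 0.961, is not drawn. On the right Pou5f1 and Wnt8a share the order of the 5 arrays, with double knockout replicate 3 highest and single knockout replicate 2 lowest.

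Further genes of the same programmes were read from lists, none of whose genes passed the test over all genes. Of 13 measured genes of naive pluripotency, the state before implantation, 7 had a difference above 0 and 6 below, with a median of 0.095 that became -0.039 without double knockout replicate 1. Klf2, a factor of naive stem cells, read 5.61, 5.57 and 5.53 in the double knockout, against 5.67, 5.79 and 5.88 in the single knockout. It thus lay lower in each double knockout array than in any single knockout array, as did 1201 of all 18193 genes. The difference of Klf2 was -0.21 (SE 0.07), and -0.23 without replicate 1. Tbx3, which helps maintain naive cells, differed by 0.32 (SE 0.15; 0.19 without replicate 1). Tfcp2l1, picked after its values were seen, read 7.55 in double knockout replicate 1 and 5.39 to 6.32 in the other 5 arrays.

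The other 9 genes of the epiblast after implantation had a median difference of 0.20, with 6 above 0, and of 0.11 without replicate 1, when all 9 were above 0. Pou3f1, a POU factor of epiblast and neural plate, read 8.36, 8.06 and 8.49 in the double knockout, against 7.84, 7.84 and 8.20 in the single knockout, and differed by 0.34 (SE 0.14; 0.31 without replicate 1). Nodal, the signal that maintains the epiblast, differed by 0.35 (SE 0.15; 0.20 without replicate 1). Replicate 1 was the highest array for 3 of the 9 genes and the lowest for 4. Over all 18193 genes it was highest for 4608 and lowest for 5396. Sox2, the partner of Oct4, read 10.91, 11.24 and 11.43 in the double knockout, against 11.13, 11.23 and 11.30 in the single knockout, and replicate 1 held the lowest value. Tdgf1, the Nodal co-receptor of the epiblast, read 5.87, 7.43 and 7.29 in the double knockout, against 6.85, 6.52 and 6.62 in the single knockout, so it too was lowest in replicate 1 while replicates 2 and 3 were the highest arrays. Sox2 and Tdgf1 were picked after their values were seen.

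Close relatives and partners of the 10 genes lay on both sides of 0. Of 9 measured paralogs, 2 had a difference above 0, with a median of -0.089. Without replicate 1, 4 of the 9 were above 0, with a median of -0.079. Slc7a1, a second carrier of arginine and lysine and the relative of Slc7a3, read 8.35, 8.82 and 8.72 in the double knockout, against 8.98, 9.39 and 9.17 in the single knockout. Every double knockout array was below every single knockout array, opposite to Slc7a3, as for 1201 of all 18193 genes. The difference of Slc7a1 was -0.55 (SE 0.15), and -0.41 without replicate 1 (limma adjusted p = 0.872 with all arrays). The zinc finger gene Sall1 differed by 0.11 (SE 0.08; 0.094 without replicate 1).

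DNA methylation genes other than Dnmt3b had a median of -0.059 over 7 genes, and -0.032 without replicate 1. Dnmt1, the maintenance enzyme, differed by -0.13 (SE 0.09; -0.036 without replicate 1) and Tet1, which oxidises methylated cytosine, by 0.17 (SE 0.11; 0.050 without replicate 1). Of 9 genes of the Lin28 and let-7 pathway 8 were below 0, with a median of -0.094, and -0.0073 without replicate 1. They include Hmga2, a classical let-7 target (-0.13, SE 0.07; -0.079 without replicate 1), and Dicer1, the enzyme that cuts microRNA precursors (-0.11, SE 0.06; -0.076 without replicate 1).

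Pluripotency genes are also active in germ cells and some extraembryonic cells, so markers of those cells were read beside them. Of 8 measured markers of primordial germ cells 6 had a difference above 0, with a median of 0.089, and 0.027 without replicate 1. Prdm1, which sets germ cell fate, differed by 0.16 (SE 0.09) and Ifitm3, a surface protein of early germ cells, by 0.18 (SE 0.10), or 0.099 and 0.28 without replicate 1. The log2 of the summed linear values of all 8 markers was 11.18 to 11.28 in the double knockout and 11.07 to 11.11 in the single knockout. Ifitm3 and Kit, with means of 9.62 and 9.51 over the arrays, carry most of this sum. Every double knockout array lay above every single knockout array for 0 of the 8 markers. Their median against the single knockout mean was -0.0335 in double knockout replicate 3. Of 8 markers of trophoblast and placenta 4 were above 0, with a median of -0.013, and -0.11 without replicate 1. Their log2 sums were 10.85 to 11.18 in the double knockout and 11.02 to 11.09 in the single knockout. Most of this sum comes from Ets2 and Cdx2, with means of 10.06 and 9.13 over the arrays. Elf5, Eomes, Ascl2 and Tpbpa lay below the array medians and add little to it. The highest sum, 11.18, was that of double knockout replicate 1, where Cdx2 was 1.05 above the mean of the other 5 arrays. Elf5, which defines trophoblast stem cells, and Gata3 differed by -0.38 (SE 0.13) and -0.20 (SE 0.07), or -0.29 and -0.21 without replicate 1.

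Of the 10 further lists, visceral endoderm, the layer that lines the yolk sac, had the largest median distance between replicate 1 and the other arrays. All 10 of its markers lay more than 1 log2 unit above the mean of the other 5 arrays there, with a median of 2.70. Their log2 summed values were 15.24, 12.69 and 12.69 in the double knockout, against 12.67, 12.70 and 13.15 in the single knockout, and without replicate 1 the median difference was -0.16, with 2 of 10 above 0. Amn, an endocytic receptor subunit, differed by 1.01 (SE 0.77) and the fibrinogen gene Fgb by 0.73 (SE 0.41) with all arrays, or 0.041 and 0.21 without replicate 1. RMA gives no value of 0, so these values cannot show that a marker was absent.

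Genes of streak and later tissue moved in replicate 1 as well. Of 9 primitive streak genes 7 had a difference above 0 (median 0.12, and 0.044 without replicate 1), and their sums were 10.67, 9.77 and 10.02 in the double knockout, against 10.01, 9.83 and 9.96 in the single knockout. After Wnt8a, the smallest p belonged to Eomes, a factor of the early streak, at 0.19 (SE 0.09; 0.11 without replicate 1). All 10 markers of day 8.5 tissue were lowest in replicate 1, as were 5396 of all 18193 genes. The median distance of the 10 markers from the other 5 arrays was -1.35. Their median group difference was -0.48, or -0.025 without replicate 1. The log2 summed values of these 10 markers were 12.60, 15.41 and 14.08 in the double knockout, against 15.24, 15.39 and 15.05 in the single knockout. Such sums follow the brightest genes, here the globins and Myl7. In replicate 3 the median of the 10 markers against the single knockout mean was -0.031, with 4 of 10 above that mean. Hbb-y read 4.05, 13.51 and 9.28 in the double knockout, so for this gene replicate 3 was also below the single knockout. Myl7 read 13.12 in replicate 3. The somite gene Meox1 read 8.37, 8.78 and 8.74 in the double knockout, against 8.98, 9.32 and 9.33 in the single knockout, and differed by -0.58 (SE 0.15), and the somite gene Tcf15 differed by -0.14 (SE 0.06), or -0.45 and -0.10 without replicate 1. The part of these cell types in the values of the 10 pluripotency genes was not tested.

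**Figure D5:**
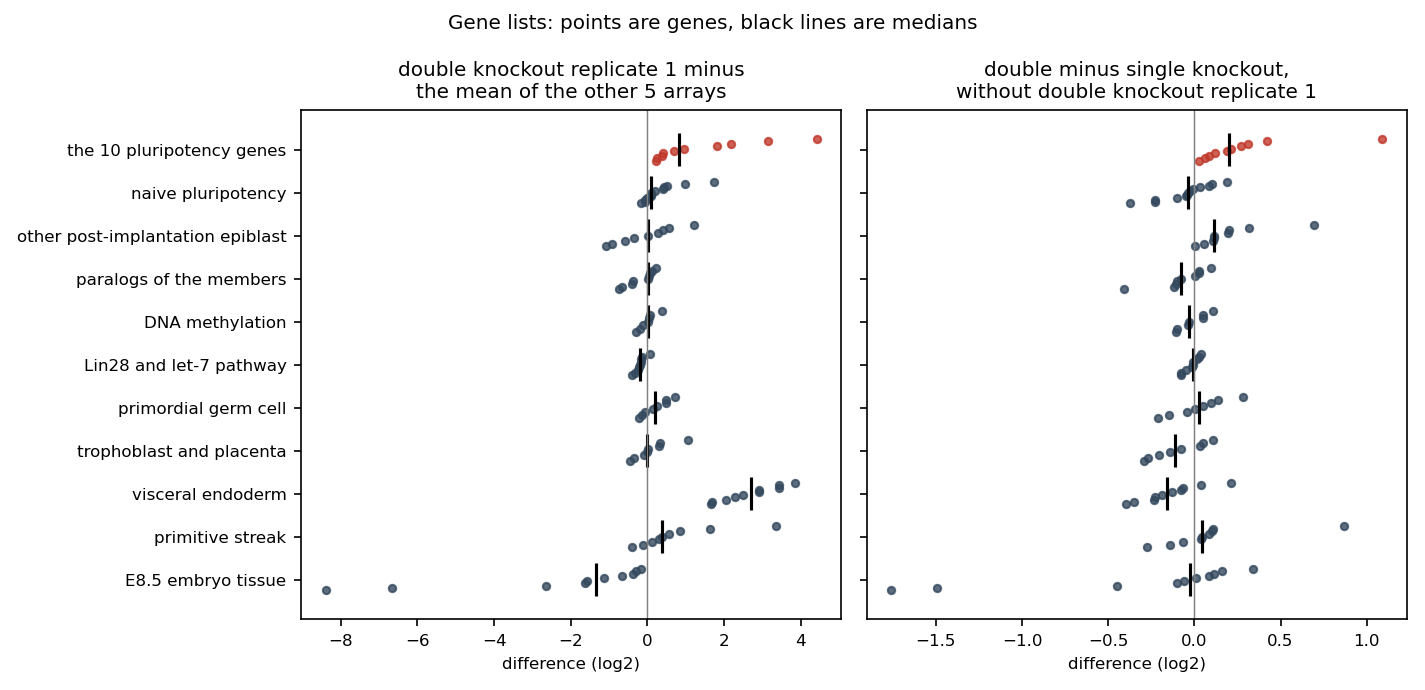
Log2 differences of single genes (points) with the list median (black line), for the 10 pluripotency genes (red) and 10 further lists (dark blue); the left panel shows double knockout replicate 1 minus the mean of the other 5 arrays, and the right panel double minus single knockout without that array. The visceral endoderm list stands at a median of 2.70 on the left and -0.16 on the right, while the 10 pluripotency genes are above 0 in both, with medians of 0.83 and 0.20.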

How the data were processed

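The authors deposited log2 values of 45101 probe sets on 6 arrays, made with RMA per the submitters' processing notes. The version of RMA, the probe definitions and any scan batch are not stated there. RMA puts all arrays on a common distribution and compresses differences of dim genes. Per the labels, Trizol and RNeasy were used to isolate total RNA. Probe sets were named through the platform annotation: 34945 had 1 symbol, 932 several, 9160 none listed and 64 were controls. In the further lists, 2 genes were matched under newer symbols through RefSeq gene identifiers. The groups were compared with limma 3.58.1 in R 4.3.3 by a two-sided moderated test (eBayes) on the brightest probe set of each of 18193 genes. Benjamini-Hochberg adjustment and a threshold of 0.05 were used. The procedure was tried on simulated data, with independent normal values and 1 spread per gene. No outlying array was simulated, so that trial does not cover an array like double knockout replicate 1. With 3 arrays a group, precision is low. Of 99 entries in 10 further lists, 92 were measured; the other 7 are not analysed here. Named genes were the 10 genes, Fzd2 and Fzd7, the 2 genes of smallest p in each list and the 5 most like Pou5f1; others are marked as picked later. The genes and lists were chosen with earlier results of these data known. Sequences are from RefSeq (GRCm38.p6). Alternatives were a replicate block, variance trend, dim genes left out, all probe sets, their mean, quantile normalization, median centring, array weights, a threshold of 0.1 and leaving out each array.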

Additional observations from a re-analysis of the deposited data

How the results depend on the processing

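On its brightest probe set or their mean, no pluripotency gene changed direction under any of the 17 alternatives in which it was tested, and the median difference stayed between 0.19 and 0.56. Single dimmer probe sets of Sall4 and Utf1 had differences of -0.013 and -0.20. None passed the test under the 15 alternatives listed in the processing, where the smallest adjusted p was 0.692 (Dppa4, array weights). With dim genes left out, 5 of the 10 genes were tested and 5 had a difference above 0. Leaving out each array in turn, the test called 0 to 1 genes. It called 0 genes with the mean of probe sets and 2 probe sets, both of Fzd2, when all probe sets were tested. Deviations from the group means correlated at 0.094, -0.037 and -0.13 between arrays of the same replicate number. Between arrays of different numbers the correlations ran from -0.15 to 0.28. With 3 arrays a group, these values cannot settle whether the replicate numbers pair the arrays. With the replicate block 1 gene and 0 of the 10 were called, and Pou5f1 had an adjusted p of 0.855. At an unadjusted limma p under 0.05 the block gave 3 of the 10 genes, against 1 without it. Over all 18193 genes it gave 1011 in either direction, against 902. A replicate block without replicate 1 of both groups, chosen after seeing the data, left 1 residual degree of freedom per gene and called 12 genes, 1 of the 10 (Pou5f1, 1.39, adjusted p = 0.009) and 1 gene of the further lists (Wnt8a). The same 4 arrays without the block called 1 gene, Fzd2, and gave Pou5f1 an adjusted p of 0.46. Some medians of the further lists reversed. Naive pluripotency was -0.043 with array weights, -0.039 without double knockout replicate 1 and -0.048 without replicate 1 of both groups. Visceral endoderm was -0.16 and -0.17 in the last 2 settings, and primitive streak -0.011 in the last. The trophoblast median was 0.0027 without double knockout replicate 3 and 0.0089 without single knockout replicate 2, where DNA methylation was 0.0046. Over the settings without 1 array, medians ran from -0.039 to 0.11 for naive pluripotency, -0.077 to 0.0046 for DNA methylation, -0.11 to 0.0089 for trophoblast and -0.16 to 1.22 for visceral endoderm. The causes were not tested, and dim genes such as Nanog and Zfp42 are limited by their low signal.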
